A study of Sus scrofa with 6 samples.

Results

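Heat shock proteins and their co-chaperones were examined in a back muscle, the longissimus dorsi, of pigs of different breeds. Genes were chosen by name alone, as those whose platform symbol begins with HSPA, HSPB, HSPD, HSPE, HSPH, HSP90 or DNAJ, begins with CCT or BAG followed by a digit, or is TCP1 or CDC37L1. The rule found 92 probe sets for 56 genes, of 6765 genes that had a probe set with a single symbol. Each gene was represented by its probe set of highest mean. The name rule also took in HSPBP1, which is not a small heat shock protein, and HSPB11, which is a subunit of the transport machinery of cilia.

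The arrays came from 3 Large White boars, the breed used as control, and 3 boars labelled Northeastern Indigenous. All were slaughtered at 150 days of age after the same feeding and housing, and no animal was treated. One Affymetrix Porcine Genome Array was read per animal, and the labels call the samples biological replicates. Values are log2 intensities after quantile normalization, differences are Northeastern Indigenous minus Large White, and errors are SDs over 3 arrays or the standard error (SE) of the difference fitted with limma. A gene was called at a Benjamini-Hochberg adjusted p under 0.05 over all probe sets kept.

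Chaperones help other proteins fold, hold unfolded ones so that they do not clump, and pass hopeless ones on for degradation. HSP70 proteins work in cycles of ATP hydrolysis in which J proteins (DNAJ) deliver the substrate and start hydrolysis, and HSP110, BAG and HSPBP1 proteins release the spent nucleotide. HSP90 finishes kinases and hormone receptors, the ring-shaped chaperonins fold proteins such as actin in an inner chamber, and small heat shock proteins (HSPB) hold substrates without ATP. In striated muscle the small heat shock proteins sit at the Z-disc and the desmin network, where contraction strains proteins. The transcription factor HSF1 switches on many cytosolic chaperones when proteins unfold.

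Markers of other cell types differed between the arrays. Of 14 muscle fibre markers 12 were on the array and none stood at 0. Their summed linear intensity was 70057 to 310175 on the Large White arrays and 309726 to 340652 on the Northeastern Indigenous arrays. The low value belonged to Large White replicate 1, where the median marker lay 3.55 log2 units below the Northeastern Indigenous mean, against 0.40 below on replicate 3 and level with it on replicate 2. The 9 adipocyte markers on the array (of 11) summed to 9767 to 95462 in Large White and 6907 to 11121 in the other breed. Large White replicates 1 and 3 were high for the 10 leukocyte markers (of 13) and the 7 fibroblast markers (of 8) as well. These sums ran from 8488 to 28476 and from 38754 to 116909 in Large White, against 2628 to 5126 and 24160 to 34179. Replicate 2 had the lowest of these Large White sums but was also above the other breed, with median deviations of 0.74 for leukocyte and 0.56 for fibroblast markers. In whole muscle, fewer cells of a type and less RNA per cell cannot be told apart. The comparison with Large White replicate 2, whose muscle and adipocyte markers lay near those of the other breed, is given beside each group below. It rests on a single Large White array, whose leukocyte and fibroblast markers were not matched.

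A filter on dim signals kept 55 of the 56 genes and left out DNAJC6, the clathrin-uncoating J protein auxilin. DNAJC6 had log2 intensities of 6.08, 5.64 and 6.17 on Large White replicates 1 to 3 and 5.41, 5.57 and 5.02 on the Northeastern Indigenous arrays. Limma called 0 of the 55 genes, against 0% of all 5438 genes kept, and the smallest adjusted p among them was 0.224. At an unadjusted p under 0.05 limma placed 13 chaperone genes, against 20.8% of all genes. Of these, 9 were higher in the Northeastern Indigenous breed (9.42% of all genes) and 4 lower (11.4%). The breeds did not overlap in 21 of the 55 genes, against 28.3% of all genes. Of these, 17 were higher in Northeastern Indigenous boars (15.9% of all genes) and 4 lower (12.3%). The median difference was 0.16 log2 units over the 55 genes and 0.09 over all genes, and 32 of 55 differences were positive, where 54.7% of all genes had a positive one. Against Large White replicate 2 by itself 32 were positive too, and 49.5% of all genes. Differences of at least 1 log2 unit either way were found for 14 of the 55 genes and for 20.9% of all genes. Large White replicate 2 was the array of its breed nearest the Northeastern Indigenous mean for 38 of the 55 genes and for 63.1% of all genes. The spread was wider in Large White for 43 of 55 chaperone genes, as it was for 74% of all genes.

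**Figure D1:**
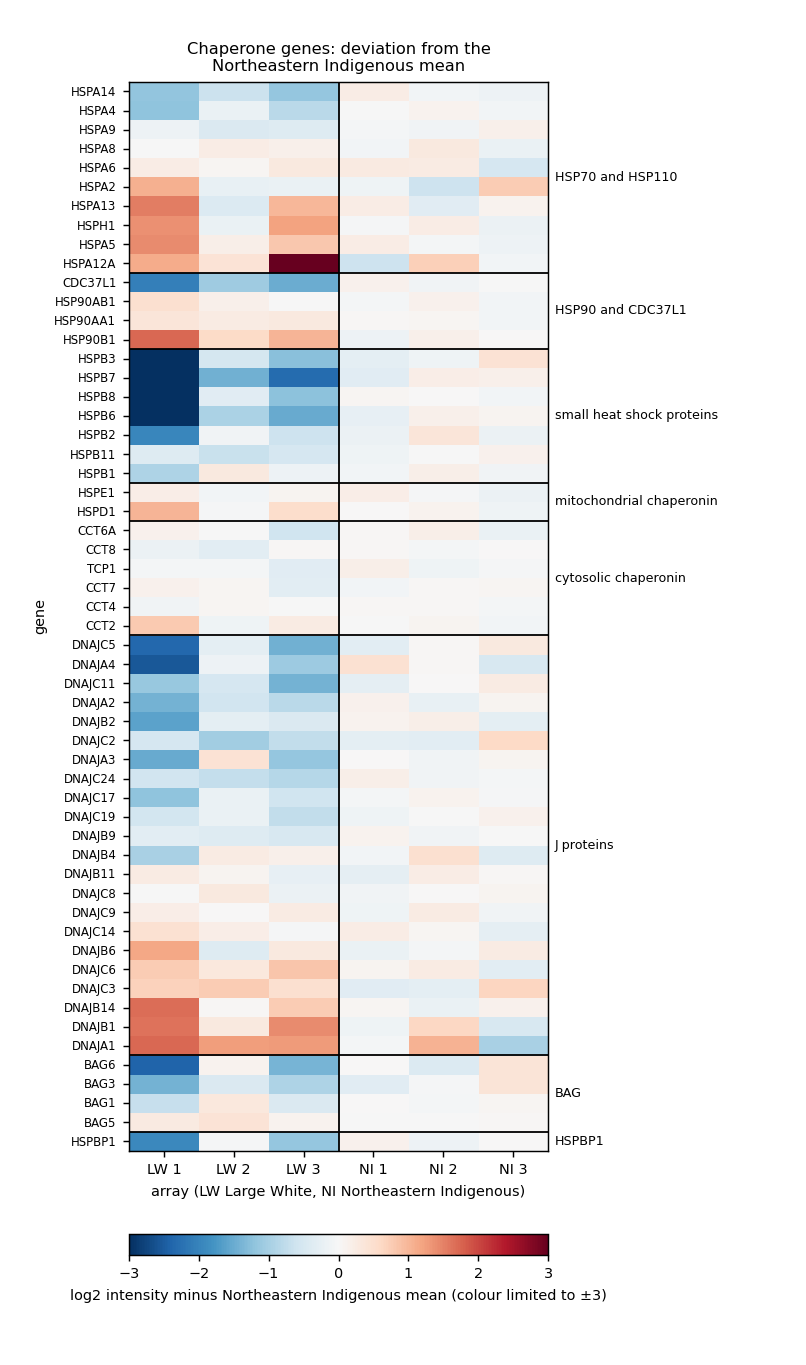
Log2 intensity of the 56 chaperone genes (rows, grouped by family) on each of the 6 arrays (columns), as the deviation from the mean of the 3 Northeastern Indigenous arrays. Large White replicate 1 is darkest blue at the small heat shock proteins, and for 38 of the 55 kept genes Large White replicate 2 deviates least of its breed.

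Large White replicate 1 was the lowest of the 6 arrays for 21 of the 55 genes and the highest for 16. These shares were 31.8% and 32.8% over all genes. Some families differed in which side it took. It was lowest for 6 of 7 HSPB genes, 3 of 4 BAG genes and HSPBP1, and highest for 3 of the 4 in the HSP90 group. The larger families lay nearer the shares over all genes. Of 10 HSP70 and HSP110 genes it was highest for 4 and lowest for 2. Of 21 J protein genes it was highest for 6 and lowest for 7.

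Among the 7 HSPB genes, which include the ciliary HSPB11, all differences were positive. Their median of 1.99 was the highest of the chaperone families. Without overlap between breeds, 5 of the 7 genes were higher (15.9% of all genes), HSPB11 among them. The family's 0 calls at the adjusted threshold went with 2 genes, HSPB6 and HSPB7, at an unadjusted p under 0.05 (9.42% of all genes). HSPB7, a heart and muscle protein that binds the cross-linker filamin C, read 7.11, 9.29 and 8.43 on Large White replicates 1, 2 and 3 and 10.39, 10.93 and 10.87 on the Northeastern Indigenous arrays. Every Northeastern Indigenous array was thus above every Large White array. The fitted difference was 2.45 ± 0.54 (SE), or 5.46-fold, with an adjusted p of 0.224 in limma.

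HSPB6, also called HSP20, a phosphorylated regulator of muscle relaxation, gave 7.998, 10.54 and 9.99 in Large White and 11.25, 11.65 and 11.58 in the Northeastern Indigenous breed. The groups were again apart, with a difference of 1.99 ± 0.63 (SE; adjusted p = 0.227 in limma). A second HSPB6 probe set differed by 2.10 ± 0.63 (SE), also without overlap. Against Large White replicate 2 by itself HSPB7 stood 1.43 and HSPB6 0.96 higher, and without replicate 1 the differences were 1.87 ± 0.36 and 1.23 ± 0.28 (SE).

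HSPB3 and HSPB8 rested mainly on a single array. HSPB3, which pairs with HSPB2 in muscle, had 4.11, 10.70 and 9.97 in Large White and 10.92, 11.08 and 11.65 in the Northeastern Indigenous breed. HSPB8, which works with BAG3 to send damaged Z-disc proteins to autophagy, had 7.14, 12.55 and 11.67 against 12.95, 12.90 and 12.81. Neither gene overlapped between breeds. Both were far lower on Large White replicate 1 than on any other array, and replicate 3 lay further under the other breed than replicate 2. Their differences of 2.96 ± 1.59 and 2.43 ± 1.27 (SE) became 0.89 ± 0.34 and 0.78 ± 0.27 without replicate 1.

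HSPB2, a partner of the myotonic dystrophy kinase, ran from 8.92 to 10.77 in Large White and from 10.69 to 11.23 in the other breed, so the groups overlapped. HSPB1, the abundant HSP27 that guards actin filaments, read 11.78, 13.02 and 12.55 against 12.64, 12.89 and 12.61. Its difference of 0.26 ± 0.33 (SE) turned to -0.07 without Large White replicate 1. The ciliary HSPB11 stood at 8.74 ± 0.14 in Large White and 9.27 ± 0.12 in the other breed (SD, n = 3 per breed), and it was the single HSPB gene for which Large White replicate 1 was not the lowest array. CRYAB, the desmin-binding alpha B-crystallin that the name rule leaves out, had 13.12, 13.31 and 13.42 against 13.54, 13.76 and 13.44, a difference of 0.30 ± 0.17 (SE) with the lowest Northeastern Indigenous array just above the highest Large White array.

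Without Large White replicate 1 the family median was 0.78 with 6 of 7 genes positive, and against replicate 2 by itself it was 0.52. Muscle fibre markers were low on the same array, at 3.55 below the Northeastern Indigenous mean, where the median HSPB gene lay 3.50 below. On Large White replicate 2 the muscle markers were level with the other breed, while HSPB7 and HSPB6 were 1.43 and 0.96 below it. The part of the muscle marker shift in the HSPB differences was not tested.

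**Figure D2:**
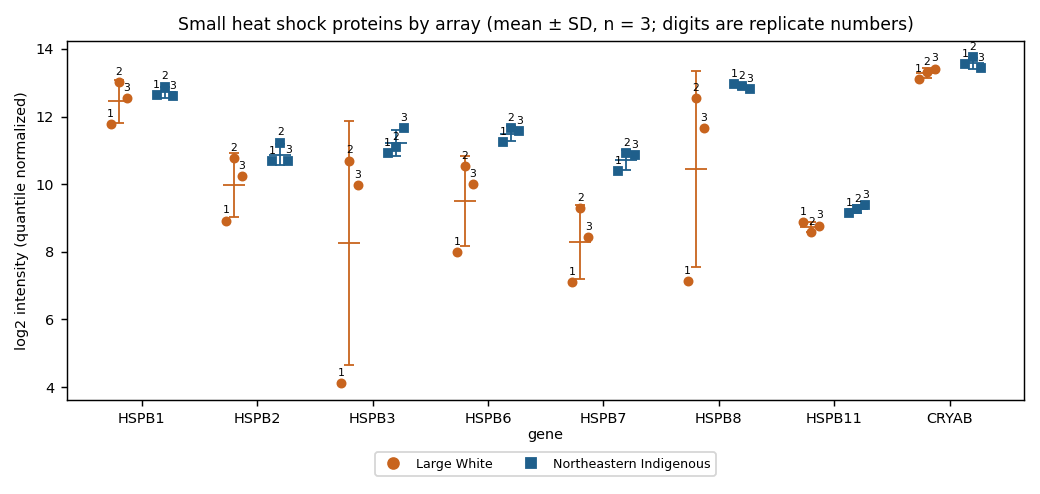
Log2 intensity of the 7 HSPB genes and CRYAB on each array, with circles for Large White and squares for Northeastern Indigenous, replicate numbers beside the points and bars for the mean ± SD (n = 3). HSPB3, HSPB6, HSPB7 and HSPB8 are lower on all 3 Large White arrays, and for HSPB3 and HSPB8 replicate 1 lies far below the others.

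The 10 HSP70 and HSP110 genes had 3 positive and 7 negative differences and a median of -0.21. When set against Large White replicate 2 by itself the balance turned, with 6 of 10 positive and a median of 0.19. HSPA14, a ribosome-bound HSP70 that works with DNAJC2 on new protein chains, read 9.36, 9.92 and 9.40 in Large White and 10.78, 10.47 and 10.41 in the Northeastern Indigenous breed. These groups did not overlap, and the difference was 0.99 ± 0.28 (SE; adjusted p = 0.224 in limma). Its partner DNAJC2, which anchors the pair at the ribosome, had 9.73, 9.20 and 9.49 against 9.95, 9.92 and 10.84. Both were also higher than on Large White replicate 2 by itself, by 0.64 and 1.04. A second, dimmer DNAJC2 probe set differed by 0.39 ± 0.31 (SE), with overlap.

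HSPA9, the mitochondrial HSP70 called mortalin, gave 12.74, 12.45 and 12.50 against 12.84, 12.78 and 13.04. The gap of 0.32 ± 0.19 (SE) was small, but its other probe sets, at 0.66 ± 0.25 and 0.78 ± 0.26, were likewise without overlap. HSPA4, an HSP110-type exchange factor, stood at 8.999 ± 0.51 and 9.73 ± 0.10 (SD, n = 3 per breed) with no overlap, and its 2 dimmer probe sets differed by 0.40 and 0.01.

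HSPA8, the constitutive HSP70, stayed between 13.73 and 14.21 on all arrays, with a difference of -0.12 ± 0.17 (SE) whose 95% interval ran from -0.53 to 0.28. That sign turned positive without quantile normalization and with median centring. Its 3 dimmer probe sets differed by -0.45 ± 0.34, -0.81 ± 0.43 and -1.32 ± 0.52 (SE), the last without overlap. HSPH1, the inducible HSP110, had 11.82, 10.26 and 11.65 in Large White and 10.41, 10.68 and 10.27 in the Northeastern Indigenous breed. Only Large White replicates 1 and 3 were high, and without replicates 1 and 3 the sign of the difference turned from -0.79 to 0.19. HSPA13, a microsomal HSP70-like protein, followed the same arrays with 10.59, 8.63 and 10.05 against 9.28, 8.70 and 9.15. HSPA12A, a distant relative, was highest on Large White replicate 3, at 9.14, and between 4.86 and 6.59 elsewhere. HSPA2, known from the testis, and HSPA6 differed by -0.22 and -0.20 with overlapping groups.

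J proteins were the largest family, with 22 genes, 21 of them kept. There were 12 positive and 9 negative differences, with a median of 0.39. Relative to Large White replicate 2 the count was 11 of 21, with a median of 0.16. No overlap was found for 7 higher genes (15.9% of all genes) and for 1 lower gene, DNAJA1 (12.3%). DNAJA1, a main cytosolic partner of HSP70, read 12.87, 12.40 and 12.43 in Large White and 11.10, 12.18 and 10.16 in the Northeastern Indigenous breed. It was the most variable chaperone gene within Northeastern Indigenous boars, where replicate 2 came close to the Large White arrays. Its difference was -1.42 ± 0.49 (SE; adjusted p = 0.232 in limma), and against Large White replicate 2 by itself -1.25. A second, dimmer DNAJA1 probe set differed by 0.13 ± 0.47 (SE), so the probe sets disagreed.

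DNAJB1, the inducible HSP40, had 10.41, 9.08 and 10.20 against 8.65, 9.42 and 8.30. Here the groups overlapped, and the difference of -1.11 ± 0.46 (SE) was -0.29 against Large White replicate 2 by itself. DNAJB14, a J protein of the endoplasmic reticulum membrane, gave 9.70, 8.05 and 8.79 against 8.08, 7.81 and 8.14, high on Large White replicates 1 and 3 alone.

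On the other side, DNAJC5, the cysteine string protein of secretory vesicles, read 6.77, 8.84 and 7.69 in Large White and 8.81, 9.15 and 9.40 in the Northeastern Indigenous breed. DNAJA4, a cytosolic J protein, ran from 6.88 to 9.26 and from 8.93 to 9.87. Large White replicate 2 fell inside the Northeastern Indigenous range for both. DNAJA2, another cytosolic partner of HSP70, did not overlap, with 10.20, 11.06 and 10.83 against 11.76, 11.41 and 11.71, a difference of 0.93 ± 0.29 (SE). It was 0.57 above Large White replicate 2 by itself.

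DNAJB6, which keeps aggregation-prone proteins soluble and is mutated in a human muscular dystrophy, is named because its 4 probe sets did not agree, a choice made after its values were seen. The brightest differed by -0.35 ± 0.42 (SE), and the others by 1.70 ± 0.78, 1.43 ± 0.51 and 0.34 ± 0.23. On Large White replicate 1 the brightest probe set was the highest of the 6 arrays at 10.89, while the second was the lowest at 7.17. Of the 24 chaperone genes with several probe sets, 21 had more than 1 kept, and in 16 of these all differences had the same sign. The 5 that disagreed were BAG5, DNAJA1, DNAJB6, DNAJC8 and HSP90AA1.

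The 4 BAG genes gave 3 positive differences and 1 negative, with a median of 0.60. The balance turned against Large White replicate 2 by itself, with 1 of 4 positive and a median of -0.21. BAG3, the partner of HSPB8 at the Z-disc, read 10.61, 11.59 and 11.10 in Large White and 11.68, 11.99 and 12.41 in the Northeastern Indigenous breed. All 3 Northeastern Indigenous arrays were higher, by 0.93 ± 0.33 (SE; adjusted p = 0.237 in limma), and a second probe set differed by 0.66 with overlap. BAG6, a guard of newly made membrane proteins, had 6.58, 9.11 and 7.60 against 9.01, 8.58 and 9.38, and its sign turned without Large White replicates 1 and 3. HSPBP1, an exchange factor of HSP70, followed the same arrays with 5.71, 7.62 and 6.48 against 7.77, 7.50 and 7.67. BAG1 differed by 0.28 with overlap. BAG5 had a difference of -0.26 without overlap, but its second probe set differed by 0.73, also without overlap.

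Of all 55 genes, CDC37L1 had the smallest unadjusted p. It encodes a relative of CDC37, the adaptor that brings kinases to HSP90. It read 10.12, 11.12 and 10.68 on Large White replicates 1, 2 and 3 and 12.31, 12.06 and 12.16 on the Northeastern Indigenous arrays. The lowest Northeastern Indigenous array was 0.95 above the highest Large White array. The difference was 1.54 ± 0.30 (SE), with an adjusted p of 0.224 in limma. A second probe set gave 7.97, 9.003 and 8.27 against 10.73, 10.33 and 10.32, a difference of 2.05 ± 0.34 (SE). Against Large White replicate 2 by itself the probe sets stood 1.06 and 1.46 higher.

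The 3 HSP90 genes had negative differences, and with CDC37L1 the median of the group was -0.26, or -0.20 against Large White replicate 2 by itself. HSP90AA1, the inducible cytosolic form, had 13.98, 13.85 and 13.90 against 13.63, 13.68 and 13.52, and HSP90AB1, the constitutive form, 13.29, 12.97 and 12.82 against 12.77, 12.94 and 12.74. HSP90AA1 had a difference of -0.30 without overlap, but its other 4 probe sets differed by -0.14 to 0.42, and both genes turned positive without quantile normalization and with median centring.

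The 6 measured genes of the cytosolic TRiC ring, which folds actin and tubulin, were TCP1, CCT2, CCT4, CCT6A, CCT7 and CCT8. All 6 overlapped between breeds, where 28.3% of all genes did not overlap. Their differences ran from -0.30 for CCT2 to 0.16 for CCT6A, and no 95% interval reached beyond -0.94 or 0.80. CCT4 held between 12.70 and 12.85 on all 6 arrays, Large White replicate 1 included, but its second, dimmer probe set differed by 0.98 ± 0.46 (SE) without overlap. The median of the 6 was 0.10 over all arrays and 0.04 relative to Large White replicate 2. It was 0.21 without quantile normalization and 0.35 with median centring, where 1 of the 6 was higher without overlap. Of the mitochondrial chaperonin, HSPE1, the lid, ran from 13.71 to 14.10 over both breeds. HSPD1, the barrel, had 13.56, 12.49 and 13.07 against 12.54, 12.64 and 12.41, high on Large White replicates 1 and 3, with a difference of -0.51 ± 0.29 (SE). Without those replicates its sign turned, and the median of both genes went from -0.29 to 0.06. That median was also positive without quantile normalization, at 0.02, and with median centring, at 0.16. Under both settings HSPE1 changed sign and HSPD1 stayed negative.

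**Figure D3:**
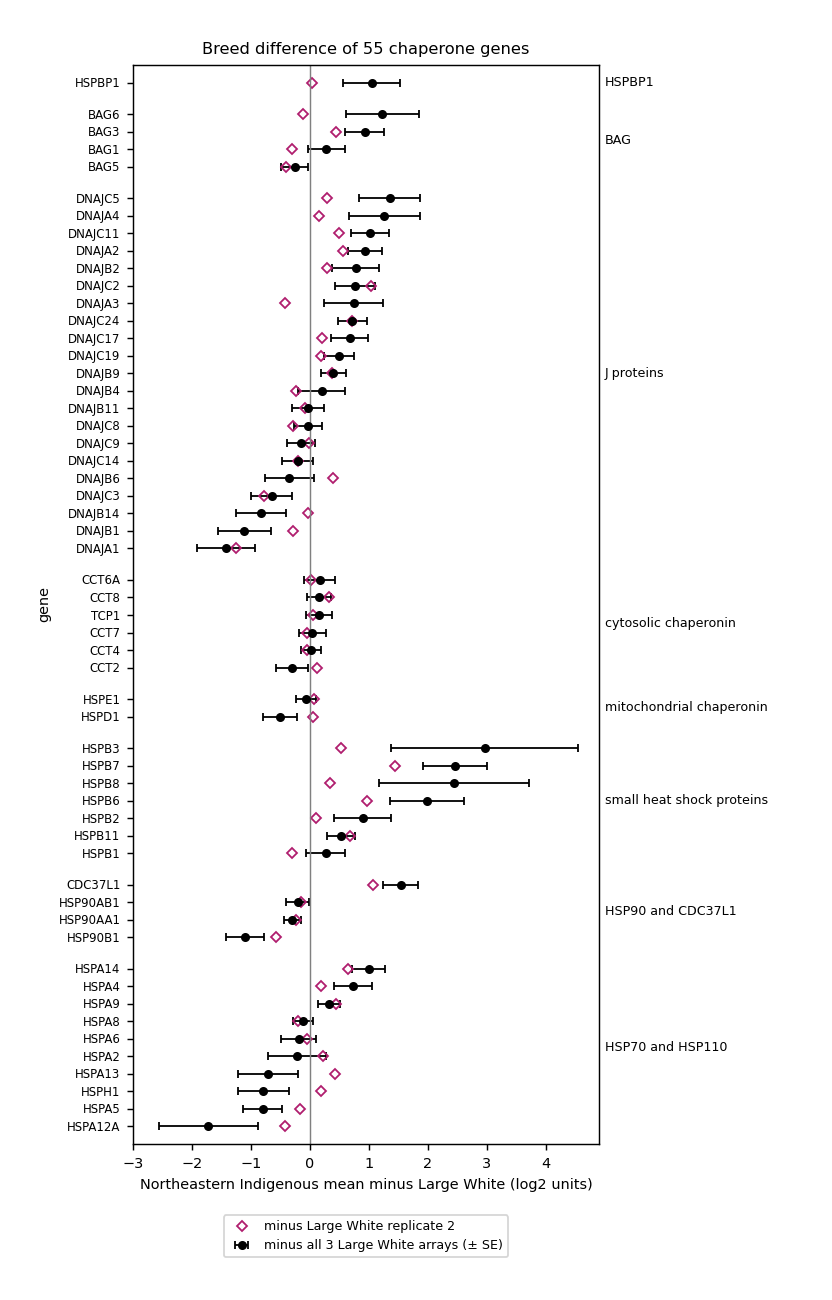
Difference of the Northeastern Indigenous mean from Large White for the 55 kept chaperone genes by family, in log2 units, with black points and SE bars for all 3 Large White arrays and open diamonds for Large White replicate 2 by itself. Most diamonds of the HSPB and J protein genes lie nearer 0 than the points, and that of CDC37L1 is at 1.06.

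Sorted by place in the cell, chaperones of the endoplasmic reticulum had mostly negative differences and those of mitochondria mostly positive ones. The reticulum list, which adds lectin chaperones and disulfide isomerases to the members, had 13 of 16 genes on the array and 12 kept. The filter on the mean over all arrays left out SDF2L1, a reticulum protein of the BiP complex, which read 7.02, 6.79 and 6.44 in Large White and 2.79, 4.10 and 6.22 in the other breed. These values did not overlap and differed by -2.38, with no test. Of the 12, 11 had negative differences, with a median of -0.61, and 0 were called, with 4 lower at an unadjusted p under 0.05 (11.4% of all genes). HSP90B1, the HSP90 of the reticulum, read 12.38, 11.24 and 11.70 in Large White and 10.52, 10.81 and 10.67 in the Northeastern Indigenous breed. No array overlapped, and the difference was -1.11 ± 0.33 (SE; adjusted p = 0.224 in limma). A second probe set differed by -0.58 with overlap.

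HSPA5, the reticulum HSP70 known as BiP, had 13.45, 12.19 and 12.83 against 12.24, 11.95 and 11.86, so Large White replicate 2 fell inside the other breed's range. The same held for the disulfide isomerase PDIA3 and the lectin chaperone CANX. PDIA6, another isomerase, had 12.65, 11.06 and 12.14 against 10.61, 10.98 and 10.69, with replicate 2 just above the other breed. PDIA3 differed by -1.24 ± 0.51, PDIA6 by -1.19 ± 0.41 and CANX by -0.80 ± 0.42 (SE). Against Large White replicate 2 by itself they stood at -0.06, -0.30 and 0.12, and HSP90B1 at -0.58. DNAJC3, a reticulum J protein that also restrains a stress kinase, had 7.33, 7.41 and 7.11 against 6.31, 6.33 and 7.27. DNAJB9, a stress-induced J protein of the reticulum, was the exception, higher without overlap at 11.48, 11.26 and 11.37 against 11.05, 10.99 and 10.90. DNAJB11, a BiP partner, differed by -0.03. The median of the list was -0.40 without Large White replicate 1 and -0.15 against replicate 2 by itself. Adipocyte, leukocyte and fibroblast markers were high on the same Large White replicates 1 and 3, at sums given above, and their part was not tested.

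**Figure D4:**
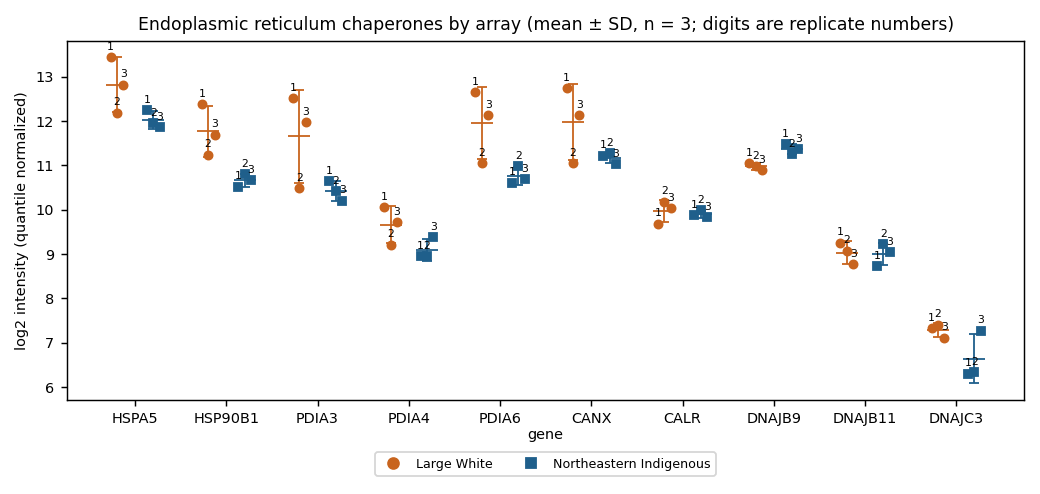
Log2 intensity of 10 chaperone genes of the endoplasmic reticulum on each array, with circles for Large White, squares for Northeastern Indigenous, replicate numbers beside the points and bars for the mean ± SD (n = 3). Large White replicates 1 and 3 are high for HSPA5, PDIA3, PDIA6 and CANX, and HSP90B1 is higher on all 3 Large White arrays.

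Of the mitochondrial list 10 of 14 genes were on the array and kept, 8 with positive differences, a median of 0.54 and 0 calls. At an unadjusted p under 0.05 there were 3 higher (9.42% of all genes) and 0 lower (11.4%), and 6 were higher without overlap (15.9%). DNAJC11, a J protein of the cristae junctions, read 8.27, 8.92 and 7.99 against 9.15, 9.43 and 9.67, a difference of 1.02 ± 0.32 (SE). DNAJC19, a part of the import motor, was at 10.74 ± 0.27 and 11.23 ± 0.13 (SD, n = 3 per breed), also apart. DNAJA3, a partner of HSPA9, had 7.72, 9.66 and 8.08 against 9.24, 9.13 and 9.32, and was higher on Large White replicate 2 than on any Northeastern Indigenous array. Against replicate 2 by itself the list median was 0.20, with 8 of 10 positive.

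The HSF1-inducible cytosolic list showed no common breed direction but differed among the Northeastern Indigenous boars. Its 14 genes on the array included HSP70.2, the stress HSP70 that RefSeq lists with the synonyms HSPA1A and HSPA1B. The list also holds HSPA8 and HSP90AB1, the forms called constitutive above. There were 7 positive and 7 negative differences, with 0 calls and a median of 0.04. With Large White replicate 2 as the single comparison array 5 of 14 were positive, with a median of -0.19. Without quantile normalization 10 were positive, and with median centring 11. Within the Northeastern Indigenous breed, replicate 2 was the highest of the 3 arrays for 12 of the 14 genes, where it was highest for 35.4% of all genes. This was seen in the data rather than planned.

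HSP70.2 read 11.95, 13.18 and 12.24 on Northeastern Indigenous replicates 1, 2 and 3, and DNAJB4, a muscle-rich J protein, 11.96, 12.52 and 11.66. DNAJA1, DNAJB1 and HSPA8 were highest on the same array, at values given above. Within the list the exceptions were HSPB8 and BAG3. HSPA6, an HSP70 gene that the list leaves out, read 8.38, 8.34 and 7.59 on Northeastern Indigenous replicates 1, 2 and 3. Its highest of these arrays was replicate 1. On the Large White arrays HSP70.2 read 12.28, 12.76 and 12.98, within the range of the other breed. With median centring, replicate 2 was highest for 9 of 14 genes, against 24% of all genes, and without quantile normalization for 12, against 38.6%. Leukocyte markers were highest on that array for 9 of 10 genes and adipocyte markers for 6 of 8 kept, with medians 0.65 and 0.52 above the breed's mean. The median of the 3 red blood cell markers on the array (of 4) was further above it, at 1.75. Their sum was 10261 against 1838 and 2832 on replicates 1 and 3. Of the 3, ALAS2 and HBM were highest on replicate 2, while HBB, at 9.50, lay below its breed mean of 9.67. Fibroblast and endothelium markers had medians 0.30 and 0.31 above the breed's mean, highest on that array for 4 of 7 and 3 of 4 genes. Their part was not tested. Without this array the difference of DNAJA1 was -1.94.

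**Figure D5:**
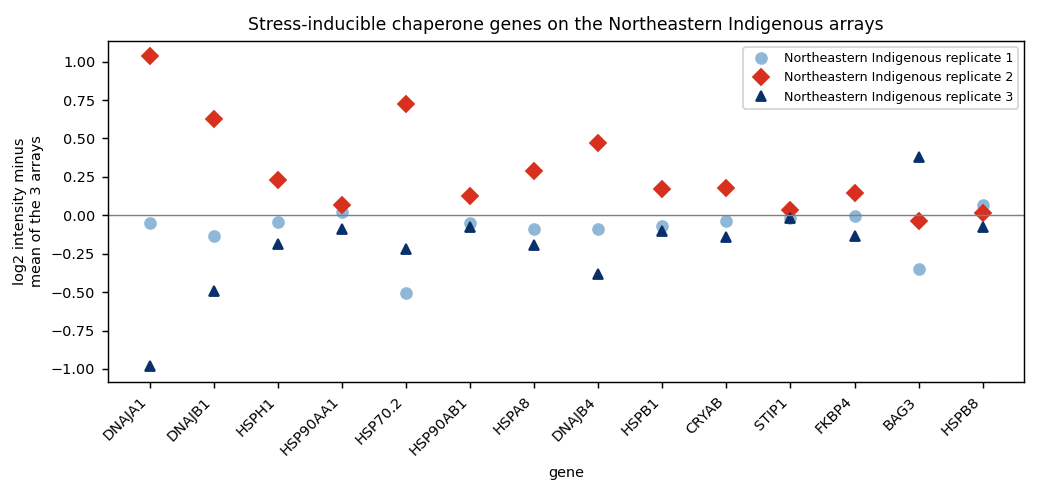
Deviation of the 14 genes of the HSF1-inducible cytosolic list from the mean of the 3 Northeastern Indigenous arrays, in log2 units, with genes ordered by breed difference. The list includes HSPA8 and HSP90AB1, called constitutive in the text. Replicate 2 (diamonds) is the highest array for 12 of 14 genes, and DNAJA1, HSP70.2 and DNAJB1 spread most among these arrays.

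The rest of the chaperone system was followed in a list of 52 genes, of which 42 were on the array and 41 kept. Limma called 0 of them, with 6 higher (9.42% of all genes) and 3 lower (11.4%) at an unadjusted p under 0.05. Without HSPBP1, which the name rule also takes, 29 of 40 had positive differences and the median was 0.45, falling to 0.10 against Large White replicate 2 by itself. FKBP5, an HSP90 co-chaperone induced by glucocorticoids, had 9.42, 9.57 and 9.09 in Large White and 11.20, 10.23 and 12.28 in the Northeastern Indigenous breed. It was 1.66 above Large White replicate 2 by itself. STUB1, the ubiquitin ligase that takes HSP70 clients to the proteasome, read 9.46, 11.25 and 10.17 against 11.59, 11.51 and 11.43, a difference of 1.22 ± 0.45 (SE) with no overlap.

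UNC45B, the myosin chaperone, and SMYD1, its methyltransferase partner in muscle, had their lowest values on Large White replicate 1, at 5.93 and 2.70. UNC45B was 10.76 on replicate 2 and 10.20 to 10.75 in Northeastern Indigenous boars, and SMYD1 was 7.78 and 7.32 to 8.69. SERPINH1, the collagen chaperone of the reticulum, had 11.31, 9.71 and 10.78 against 8.34, 9.54 and 7.95, a difference of -1.99 ± 0.55 (SE) with no overlap. The heat shock factors HSF1 and HSF2 differed by 0.44 ± 0.51 and 0.38 ± 0.34 (SE), and both overlapped.

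Without Large White replicate 2, limma called 21 of the 55 chaperone genes, against 34% of all genes, in a comparison that sets Large White replicates 1 and 3 against the other breed. They were 14 higher and 7 lower in Northeastern Indigenous boars, against 16.9% and 17.1% of all genes. Without overlap there were 39, against 66.3% of all genes. The smallest adjusted p was 0.00687, for CDC37L1, followed by HSPB7 at 0.00724. Without Large White replicate 1, limma called 0 of the 55, against 0.0184% of all genes. Without Large White replicates 1 and 3, it called 0, against 0% of all genes, and 34 did not overlap, against 60.3% of all genes. CDC37L1 then had the smallest unadjusted p, 0.000877, and HSPB7 and HSPB6 followed at 0.00205 and 0.00536, in a fit where the lone Large White array is assumed to vary like the other breed.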

How the data were processed

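Total RNA of 6 boars was hybridized as biotin-labelled cRNA to 1 array each, per the labels' protocols. The authors deposited linear intensities, a single value for each probe set on each array, and the software behind it is not given in the sources used here. Trimmed means (2% at each end) lay at 500.1 to 500.2 on every array.

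The 124 control probe sets were left out, and log2 intensities were quantile normalized because array medians spanned 0.352. The dimmest 40% of probe sets by mean log2 were set aside, which left 14399. Breeds were compared with limma 3.58.1 in R 4.3.3 (eBayes with an intensity trend, two-sided), and the fit was tested on simulated data. Intensities carry no read depth, and the number of arrays limits precision. Symbols came from the platform annotation. RefSeq's table held 55 of the 56 gene identifiers with unchanged symbols. No genome build is given here, so no coordinates are printed.

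Members, lists and alternatives were chosen with earlier results of these data known. Named were all HSPA, HSPB, HSPD, HSPE, HSPH, HSP90, CCT, TCP1, BAG and CDC37L1 genes. J proteins were named if in a location list or among the 4 largest differences in either direction, and other pathway genes likewise, with HSF1, HSF2, CRYAB, UNC45B and SMYD1. SDF2L1, DNAJB6, DNAJC2, DNAJC6, DNAJC8 and HSP70.2 were added after their values were seen.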

Additional observations from a re-analysis of the deposited data

How the results depend on the processing

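The count of 0 chaperone genes called held under all alternatives except leaving out Large White replicate 2. Leaving out 1 array at a time gave 0 to 21 chaperone genes and 0 to 4421 probe sets called, medians from 0.147 to 0.242 and 21 to 39 genes without overlap. The 39 came without Large White replicate 2, where 66.3% of all genes did not overlap. The 21 came without Large White replicate 1, as 17 higher and 4 lower, against 1035 and 741 of all 5438 genes. With all 6 arrays 28.3% of all genes did not overlap. With Large White replicates 1 and 3 left out together the median was 0.074, and 34 genes did not overlap, against 60.3% of all genes. The median was 0.371 with median centring, which also called 1 probe set, and 0.243 when each gene was the average over its probe sets. The replicate number as a block called 0 genes and 0 probe sets. Same-numbered arrays of the breeds deviated with correlations of -0.024, -0.164 and -0.108, and other pairs with -0.094 to 0.133. Pairing by number was not seen, though 3 arrays per breed cannot exclude it. Without quantile normalization the median shift of a probe set's difference was -0.14. The median difference of all probe sets went from 0.10 to -0.003. That of the 55 chaperone genes rose from 0.161 to 0.231, with 36 positive. Of the 55 genes, 33 kept the sign of their difference under every alternative run and 22 did not. The causes were not tested. A planned search of promoters for motifs was not run, since no sequences were used here.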
